A study of Mus musculus with 40 samples.

Results

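The genes Cdkn1a, Ccng1, Btg2, Gdf15, Mdm2, Phlda3, Sesn2, Trp53inp1, Bax and Bbc3, which p53 is known to switch on and several of which halt cell growth, were followed across the livers of mice given TCDD. These 10 were chosen by name, with earlier results of these data known. All were found among the 55359 gene identifiers of the count tables and passed the filter on low counts that left 15373 genes for testing. TCDD, the prototype dioxin, persists in tissue and acts by binding the aryl hydrocarbon receptor (AhR), which switches on genes. Total liver RNA of 40 male C57BL/6 mice was sequenced. All mice were gavaged every 4 days for 28 days, 7 times in all, from 30 to 58 days of age, and dosing and collection fell in the first hours of the light phase. The control group received the sesame oil vehicle, and the others received TCDD in that oil at 7 doses from 0.03 to 30 μg/kg (30, 10, 3, 1, 0.3, 0.1 and 0.03 μg/kg), with 5 mice in each of the 8 groups and 1 library for each mouse. No genetic change was made in these mice, so p53 itself was neither removed nor activated by design.

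p53 is a transcription factor that is stabilised after DNA damage and other stress. It binds paired copies of a short element near its target genes, and its targets arrest the cell cycle, repair DNA, alter metabolism, start apoptosis or, through Mdm2, bring p53 down again. The p21 protein made from Cdkn1a inhibits cyclin-dependent kinases and lets the DREAM complex silence genes needed for mitosis. Several of these targets also answer to other factors, among them ATF4, the transcription factor of the integrated stress response, which is known for Sesn2 and Gdf15. Liver cells seldom divide in the adult, and p21 is best known there for holding hepatocytes out of the cell cycle during injury and regeneration.

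The sequences just upstream of 4 members are shown because they hold the letters by which p53 or the AhR could meet the gene, and because these members took different courses. Each run is the 250 bases before a RefSeq transcript start on GRCm38.p6, written 5′ to 3′ on the strand of the gene. Capitals mark every match to the p53 half-site or full site and to the dioxin response element (DRE) core, GCGTG, the letters the AhR complex binds. Cdkn1a lies at chr17:29090729-29090978 on the plus strand, Ccng1 at chr11:40755287-40755536 on the minus strand, Mdm2 at chr10:117710759-117711008 on the minus strand and Bbc3 at chr7:16309333-16309582 on the plus strand.
Cdkn1a: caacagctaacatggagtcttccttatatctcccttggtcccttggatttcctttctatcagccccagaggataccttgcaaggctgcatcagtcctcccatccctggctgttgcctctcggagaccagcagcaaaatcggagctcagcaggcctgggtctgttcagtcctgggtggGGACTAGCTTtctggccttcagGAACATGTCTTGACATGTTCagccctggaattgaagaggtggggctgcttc
Ccng1: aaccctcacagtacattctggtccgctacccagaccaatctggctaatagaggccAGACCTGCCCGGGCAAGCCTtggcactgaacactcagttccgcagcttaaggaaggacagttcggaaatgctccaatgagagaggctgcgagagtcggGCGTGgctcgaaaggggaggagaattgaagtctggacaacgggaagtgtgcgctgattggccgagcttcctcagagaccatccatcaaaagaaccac
Mdm2: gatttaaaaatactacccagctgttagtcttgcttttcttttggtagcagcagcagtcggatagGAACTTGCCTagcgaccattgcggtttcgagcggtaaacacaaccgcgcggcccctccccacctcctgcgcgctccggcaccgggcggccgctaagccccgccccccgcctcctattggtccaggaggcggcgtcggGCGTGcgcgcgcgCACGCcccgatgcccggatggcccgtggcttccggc
Bbc3: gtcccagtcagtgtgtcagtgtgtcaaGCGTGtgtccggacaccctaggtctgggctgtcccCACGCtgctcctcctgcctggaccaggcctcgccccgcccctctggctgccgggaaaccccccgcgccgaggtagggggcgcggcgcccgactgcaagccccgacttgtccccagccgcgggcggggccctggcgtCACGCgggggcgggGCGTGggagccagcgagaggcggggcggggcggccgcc

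RefSeq entries were matched for 9 of the 10 members, with 13 promoters between them, and not for Trp53inp1. Both strands of each upstream run were searched. The p53 full site, a pair of half-sites in 20 bases with at most 2 mismatches, was found for Cdkn1a and Ccng1. In the promoters shown it lies at −51 to −32 for Cdkn1a and −195 to −176 for Ccng1 from those transcript starts. It occurs in 0.661% of all 32841 promoters. The second Cdkn1a promoter, downstream at chr17:29093519-29093768, holds no p53 half-site or full site. At least 1 p53 half-site was found for Cdkn1a, Ccng1, Mdm2 and Bax, with 2 in Cdkn1a, against 7.13% of all promoters, and in Cdkn1a and Ccng1 a half-site lies within the full site. The DRE core was found in promoters of Bbc3, Btg2, Ccng1, Cdkn1a and Mdm2, against 28.2% of all promoters. In Cdkn1a it lies only in the second promoter, downstream of the one shown, and the first Bbc3 promoter holds 4 copies. The shares over all promoters count single promoters, while a member was counted if any of its promoters held a match. Member promoters held 54.0% to 81.6% G or C, beside a median of 52.4% over all promoters. The part of this in the matches was not tested. The ATF4 element TGATGNAA was in no member promoter, against 3.45% of all, which says only that these letters are not in these windows. These matches are descriptions of letters, not of binding.

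Libraries held 15.5 M to 21.0 M counts in genes (median 17.5 M), and levels are given as CPM (counts per 1 M counts) on TMM-scaled library sizes. The AhR targets Cyp1a1, Cyp1a2, Cyp1b1, Tiparp and Nqo1 were all called higher at 10 and at 30 μg/kg, which checks the dose labels. Hepatocyte markers such as Alb, Apoa1 and Ttr were the most abundant of the marker lists in every group, which checks the tissue label. Mouse 1 of the 30 μg/kg group stood apart from its group, with a first principal component score of 81.7 where the other 4 lay from 129 to 147, and results at that dose are therefore also given without it. Mice were numbered in accession order within a group. The labels do not say whether mice shared a cage or litter. A gene was called changed when edgeR's quasi-likelihood test gave a Benjamini-Hochberg adjusted p under 0.05 over all 15373 genes and the fold change was at least 1.5. Every dose was set against the same 5 vehicle mice, so the comparisons are not independent of one another.

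The 10 genes changed at the top of the dose range. No member was called at any of the 5 doses up to 3 μg/kg, where the share of all genes called rose from 0.0195% at 0.03 μg/kg through 0.0976%, 0.468% and 2.78% to 6.75% at 3 μg/kg. At these 5 doses 0, 0, 0, 0 and 1 members had an unadjusted p under 0.05, the last being Btg2, against 2.56%, 4.33%, 7.33%, 15.1% and 22.5% of all genes. At 10 μg/kg Cdkn1a, Gdf15, Phlda3 and Btg2 were called higher and no member lower, against 13.6% and 8.13% of all genes. At 30 μg/kg these 4 were joined by Bax, Ccng1 and Mdm2, making 7 members higher, and Bbc3 was lower, against 23.2% of all genes called higher and 18.9% lower. Sesn2 and Trp53inp1 were called at no dose, although with libraries scaled to total counts alone, which moved the median of all genes from 0.03 to 0.52, both were called higher at 30 μg/kg and Sesn2 also at 10 μg/kg. The median log2 fold change of the 10 members was 0.39 at 10 μg/kg and 0.82 at 30 μg/kg, beside 0.01 and 0.03 over all genes tested. Because whole liver was sequenced, a change in the number of cells of a type and a change in RNA per cell cannot be told apart.

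**Figure D1:**
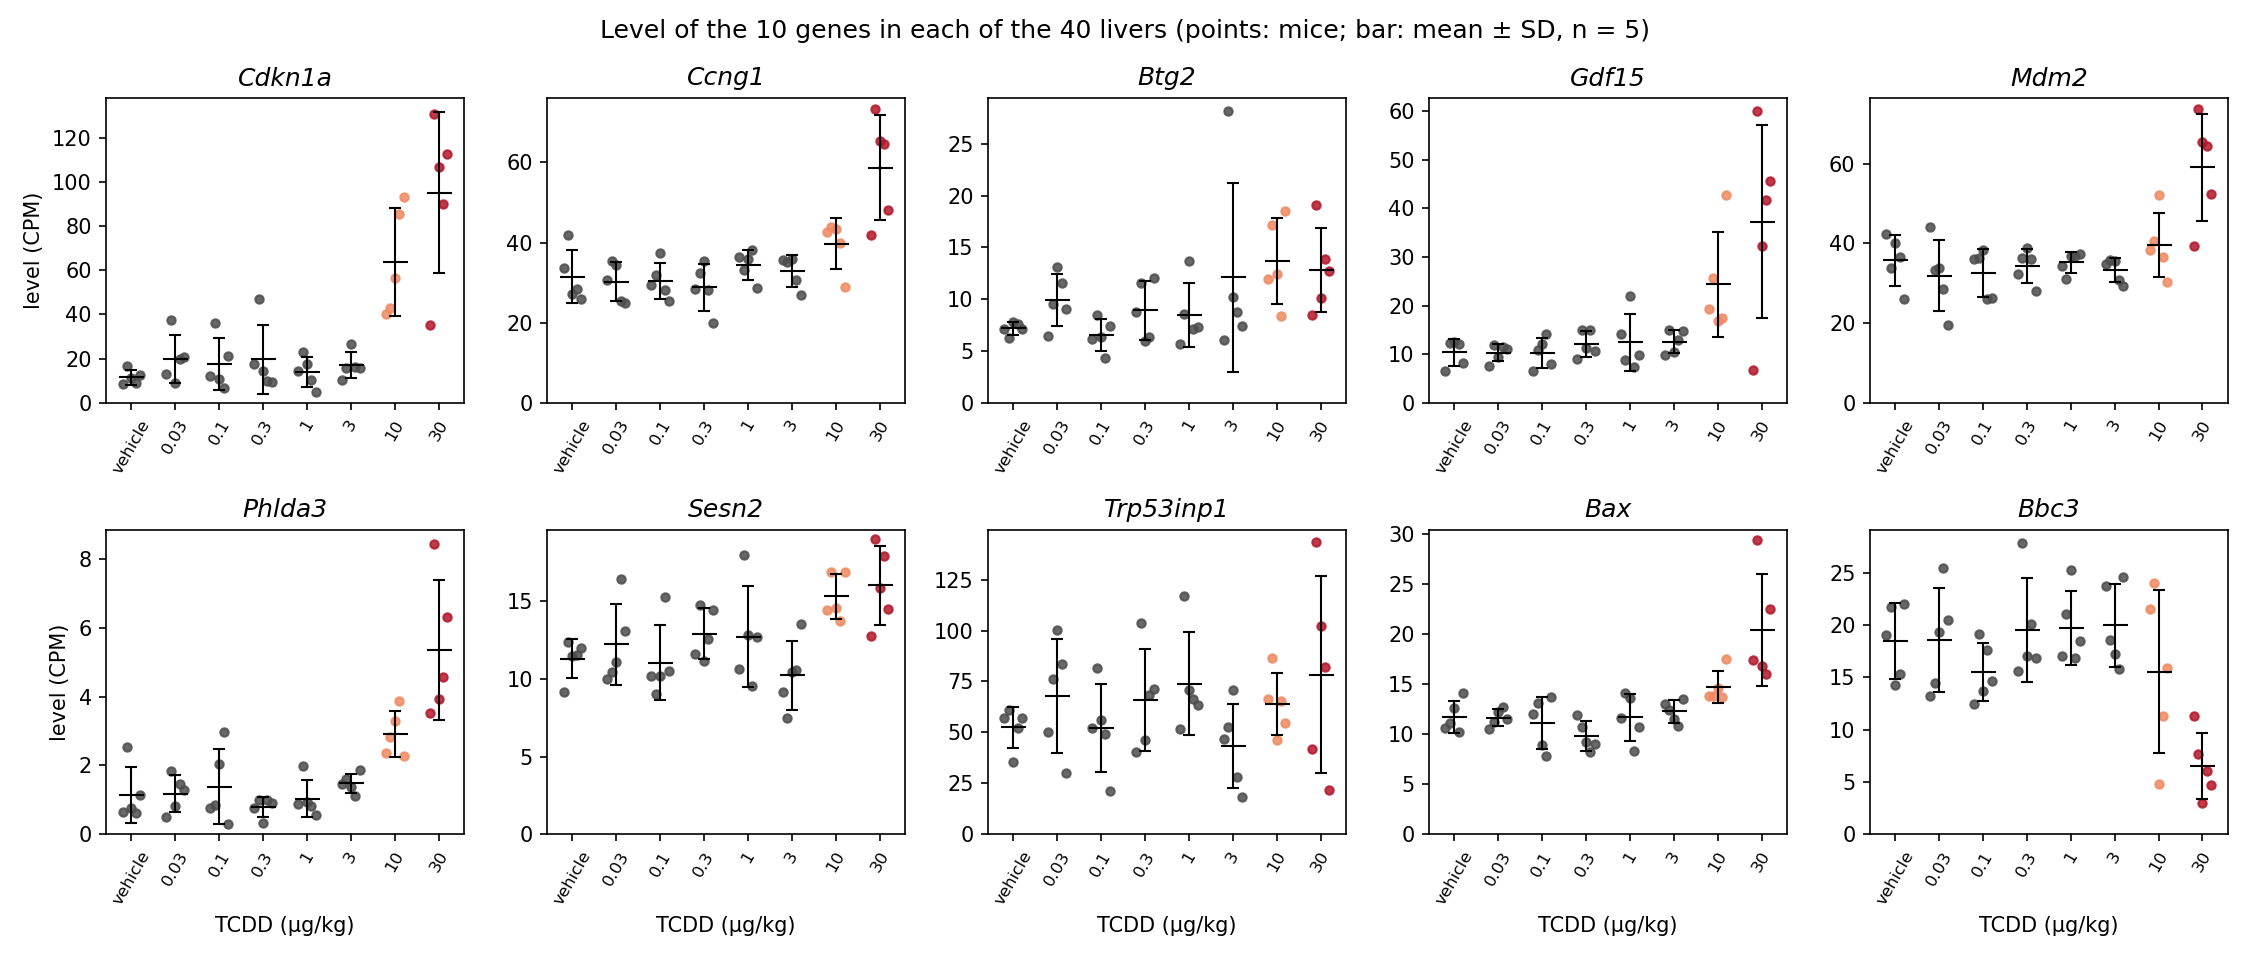
Level (CPM) of each of the 10 genes (panels) in every mouse (points) by TCDD dose in μg/kg, with the mean ± SD of 5 mice as black bars and 10 and 30 μg/kg in colour. Cdkn1a lay from 40.3 to 93.3 CPM at 10 μg/kg, above every vehicle mouse, and Bbc3 lay from 3.01 to 11.3 CPM at 30 μg/kg, below every vehicle mouse.

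Cdkn1a, which encodes p21, changed most of the 10. In the vehicle mice it stood at 8.41, 16.8, 11.3, 8.74 and 12.7 CPM. The 5 mice at 10 μg/kg had 40.3, 43.1, 56.5, 85.6 and 93.3 CPM. Those at 30 μg/kg had 35.3, 131, 107, 90.1 and 113 CPM. Every mouse at both doses lay above every vehicle mouse, and mouse 1 was the lowest of its group at 30 μg/kg. The mean rose from 11.6 ± 3.42 CPM (SD, n = 5) to 63.8 ± 24.4 and 95.1 ± 36.5 CPM. Cdkn1a was 5.50-fold higher at 10 μg/kg (log2 fold change 2.46, SE 0.45, edgeR adjusted p = 4.11e-05) and 8.22-fold higher at 30 μg/kg (3.04, SE 0.46, edgeR adjusted p = 4.74e-07). Without mouse 1 of the 30 μg/kg group the log2 fold change was 3.23. Between 30 and 10 μg/kg it differed by 0.58 (SE 0.42, edgeR adjusted p = 0.311), which did not pass the threshold.

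At the 5 lower doses Cdkn1a varied widely among mice. Values ran from 5.02 to 47.1 CPM over these 25 mice, and the coefficient of variation within a dose was 54.8%, 67.7% and 79.9% at 0.03, 0.1 and 0.3 μg/kg, against 29.5% in vehicle. Mouse 2 of each of these 3 groups was the highest, at 37.4, 36.1 and 47.1 CPM, and the number pairs no mice across groups. The log2 fold changes at these 3 doses, 0.78, 0.58 and 0.76, had SEs of 0.44 and edgeR adjusted p of 1, 1 and 0.768.

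Ccng1 encodes cyclin G1, a long known p53 target that works with Mdm2 and a phosphatase. The vehicle mice had 33.6, 42.0, 27.2, 28.5 and 25.9 CPM. Mice given 30 μg/kg had 41.9, 73.4, 65.4, 64.5 and 48.1 CPM. Mice 2 to 5 lay above all vehicle mice and mouse 1 lay just under the highest of them. Ccng1 was 1.86-fold higher (log2 fold change 0.90, SE 0.15, edgeR adjusted p = 5.40e-06), and the change was 0.98 without mouse 1. The 10 μg/kg mice had 42.8, 43.9, 43.3, 40.0 and 28.8 CPM. Mice 1 to 4 sat close together near the top vehicle value, mouse 5 was low, and the log2 fold change of 0.34 had an edgeR adjusted p of 0.0942.

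Btg2 encodes an antiproliferative protein that acts on mRNA deadenylation. In vehicle it was the steadiest member, at 7.11, 6.28, 7.83, 7.56 and 7.09 CPM. It had risen to 11.9, 17.2, 12.4, 8.42 and 18.6 CPM in the mice at 10 μg/kg, and to 8.42, 19.1, 10.1, 13.9 and 12.7 CPM at 30 μg/kg. All 10 of these mice lay above all vehicle mice. The log2 fold change was 0.93 at 10 μg/kg (SE 0.30, edgeR adjusted p = 0.0163) and 0.84 at 30 μg/kg (SE 0.30, edgeR adjusted p = 0.0180). Between 30 and 10 μg/kg it differed by −0.10 (SE 0.29, edgeR adjusted p = 0.844). Each call hung on 1 library. Without mouse 5 at 10 μg/kg the change was 0.80 (edgeR adjusted p = 0.0524), and without mouse 2 at 30 μg/kg it was 0.63 (edgeR adjusted p = 0.0859), while without mouse 1 at 30 μg/kg it was 0.94. At 3 μg/kg mouse 2 reached 28.2 CPM, the highest value of Btg2 in the study, while the other 4 had 6.05 to 10.2 CPM. Of all 40 libraries, that of mouse 2 had the lowest share of reads in genes (71.3%) and the highest share unmapped (11.3%). The change at 3 μg/kg was 0.76 (edgeR adjusted p = 0.117). Without mouse 1 of that group, the lowest in Btg2, it was 0.93 and passed (edgeR adjusted p = 0.0487).

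Gdf15 encodes a secreted stress hormone that lowers food intake. Vehicle mice had 6.57, 12.3, 12.5, 12.2 and 8.24 CPM. Mice at 10 μg/kg had 19.4, 25.6, 16.8, 17.5 and 42.8 CPM, and at 30 μg/kg 6.67, 60.1, 32.3, 41.8 and 45.7 CPM. The groups did not overlap at 10 μg/kg, nor did mice 2 to 5 at 30 μg/kg overlap the vehicle mice, while mouse 1 at 30 μg/kg lay near the bottom of the vehicle range. The log2 fold change was 1.24 at 10 μg/kg (SE 0.33, edgeR adjusted p = 0.00382) and 1.85 at 30 μg/kg (SE 0.34, edgeR adjusted p = 1.31e-05), a 3.61-fold rise. Without mouse 1 the change at 30 μg/kg was 2.10, a 4.29-fold rise.

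Mdm2 encodes the ubiquitin ligase that p53 induces and that degrades p53. The vehicle mice had 42.4, 33.9, 40.1, 36.6 and 26.0 CPM. Those at 10 μg/kg had 38.4, 40.6, 52.1, 36.7 and 30.3 CPM, largely within the vehicle range. The 30 μg/kg mice had 39.3, 73.8, 65.4, 64.5 and 52.4 CPM. Only mouse 1 at 30 μg/kg overlapped the vehicle mice. Mdm2 was 1.65-fold higher at 30 μg/kg (log2 fold change 0.72, SE 0.16, edgeR adjusted p = 0.000289) and differed by 0.15 at 10 μg/kg (edgeR adjusted p = 0.541). Without mouse 1 the change at 30 μg/kg was 0.82. The feedback inhibitor was thus first called at 30 μg/kg and Cdkn1a at 10 μg/kg.

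Phlda3 encodes a membrane-bound protein that restrains the kinase AKT. It was the scarcest member, with 9 to 41 counts per vehicle library, or 0.647, 2.55, 0.777, 0.630 and 1.15 CPM. Levels at 10 μg/kg were 2.35, 2.81, 3.28, 3.89 and 2.28 CPM, and at 30 μg/kg 3.52, 8.44, 3.93, 4.57 and 6.32 CPM. All 5 mice at 30 μg/kg exceeded the highest vehicle mouse, whereas at 10 μg/kg 3 of 5 did, because vehicle mouse 2 was high. Phlda3 was 2.53-fold higher at 10 μg/kg (log2 fold change 1.34, SE 0.42, edgeR adjusted p = 0.0122) and 4.64-fold higher at 30 μg/kg (2.22, SE 0.42, edgeR adjusted p = 2.26e-05), or 2.31 on the log2 scale without mouse 1 at that dose.

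Sesn2 encodes sestrin 2, which holds back mTORC1 when leucine is short or cells are stressed. The vehicle mice had 9.15, 12.4, 11.5, 11.5 and 12.0 CPM. Levels were 14.4, 16.8, 14.5, 13.7 and 16.9 CPM at 10 μg/kg and 12.8, 19.0, 15.9, 17.9 and 14.5 CPM at 30 μg/kg. All 10 mice lay above the highest vehicle mouse, but the shift was small. The log2 fold change was 0.44 at 10 μg/kg (edgeR adjusted p = 0.0352) and 0.50 at 30 μg/kg (SE 0.16, edgeR adjusted p = 0.00787), under the 1.5-fold threshold at both, and it was 0.55 at 30 μg/kg without mouse 1, still under it. By the adjusted p alone, 17.7% of all genes were higher at 10 μg/kg and 28.8% at 30 μg/kg.

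Trp53inp1 encodes a nuclear protein that promotes p53 phosphorylation and autophagy. It varied more than any other member at 30 μg/kg, with 41.7, 143, 102, 82.2 and 21.9 CPM in the 5 mice, a coefficient of variation of 61.7%. The vehicle mice had 56.9, 60.8, 35.3, 52.4 and 57.2 CPM. Of the treated mice 3 lay above all vehicle mice, 1 lay within their range and 1 below it. The log2 fold change of 0.57 did not pass (SE 0.37, edgeR adjusted p = 0.188), and its approximate 95% interval, from −0.15 to 1.30, takes in both no change and a rise of more than 2-fold. Without mouse 1 the change was 0.71 (edgeR adjusted p = 0.105), which did not pass either.

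Bax and Bbc3 encode members of the BCL2 family that bring about apoptosis, BAX by opening the mitochondrial outer membrane and PUMA, made from Bbc3, by blocking the protective members. They moved in opposite directions. The vehicle mice had 10.6, 11.1, 12.6, 10.2 and 14.1 CPM of Bax. The 30 μg/kg mice had 17.5, 29.4, 16.8, 16.1 and 22.6 CPM. All 5 lay above every vehicle mouse, and Bax was 1.74-fold higher (log2 fold change 0.80, SE 0.16, edgeR adjusted p = 3.52e-05), with a change of 0.83 without mouse 1. At 10 μg/kg 4 mice had 13.8 to 14.6 CPM and mouse 5 had 17.5 CPM. The change of 0.33 did not pass there (edgeR adjusted p = 0.11).

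Bbc3 was the only member that fell. The vehicle mice had 19.1, 21.8, 14.2, 15.3 and 22.1 CPM. Treated mice at 30 μg/kg had 11.3, 7.70, 3.01, 6.03 and 4.72 CPM. All 5 lay below every vehicle mouse, and here mouse 1 was the least changed. Bbc3 was 2.83-fold lower (log2 fold change −1.50, SE 0.29, edgeR adjusted p = 2.54e-05), and 3.50-fold lower without mouse 1 (−1.81). The mice at 10 μg/kg were split, with 21.6, 24.1, 4.80, 11.4 and 15.9 CPM. Mouse 2 lay above the vehicle range, mouse 1 near its top and mice 3 and 4 below it, and the change of −0.25 did not pass (edgeR adjusted p = 0.536).

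**Figure D2:**
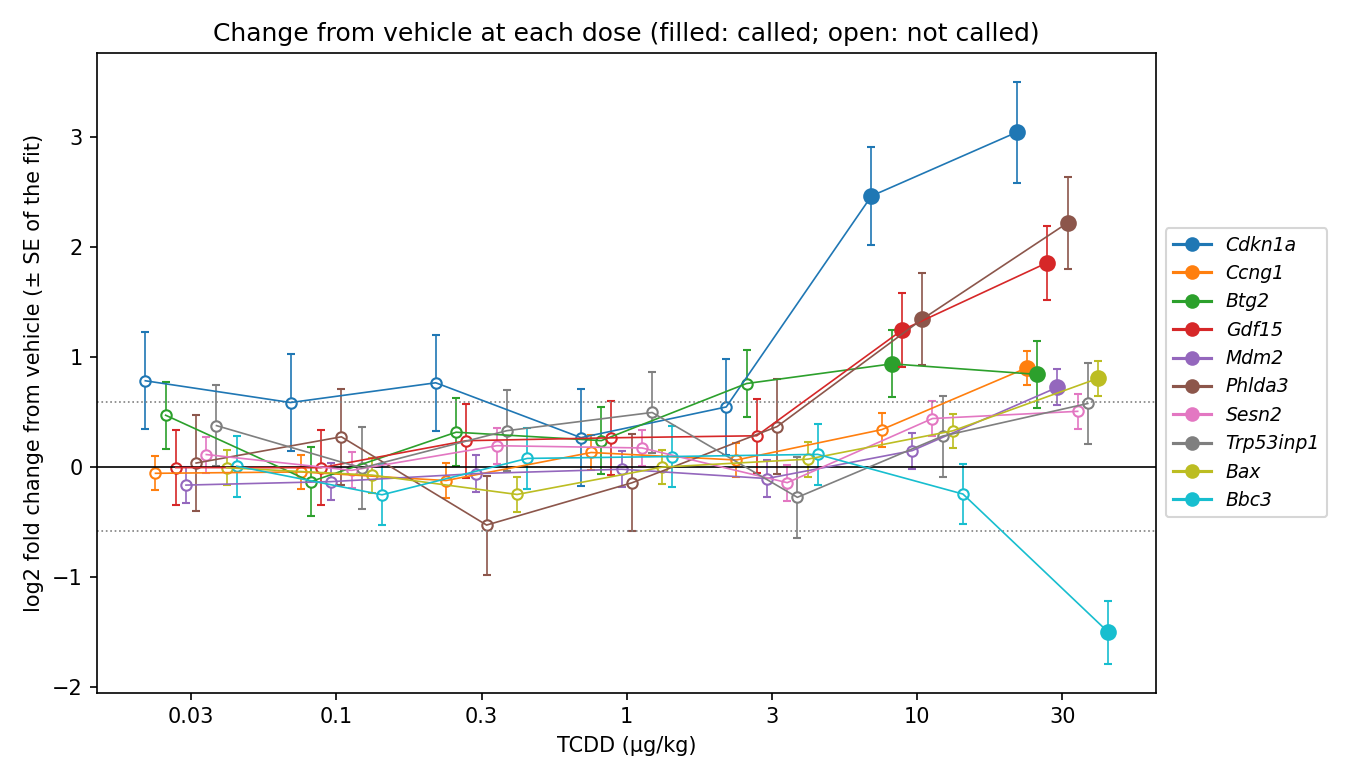
Log2 fold change from vehicle (points, with the SE of the edgeR fit as bars) of the 10 genes at each TCDD dose in μg/kg, with dotted lines at 1.5-fold and points spread sideways within a dose for legibility. Filled points, which are genes called at that dose, appear only at 10 and 30 μg/kg, and Bbc3 alone is below the lower dotted line, at −1.50.

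Over the ordered dose steps, 8 members had an upward slope and Bbc3 a downward slope with an edgeR adjusted p under 0.05, against 31.5% and 26.1% of all genes, and Trp53inp1 had neither. The slope of Bbc3 no longer passed when any 1 of 6 libraries was left out, which were mouse 4 at 0.03, mouse 3 at 10 and mice 2, 3, 4 and 5 at 30 μg/kg, with slopes from −0.10 to −0.08 per step and edgeR adjusted p from 0.0507 to 0.0707. Between 30 and 10 μg/kg, Bbc3 was the 1 member called, 2.39-fold lower (log2 fold change −1.25, SE 0.28, edgeR adjusted p = 0.000689), against 10.6% of all genes called lower and 10.6% higher. Ccng1, Mdm2 and Bax were higher at 30 than at 10 μg/kg by 0.56, 0.58 and 0.48 on the log2 scale and passed the adjusted p (edgeR, 0.00432, 0.00601 and 0.0158) but not the 1.5-fold threshold, where 14.9% of all genes were higher by the adjusted p alone. That count rested on single libraries. Without mouse 1 at 30 μg/kg, Mdm2 (0.67), Ccng1 (0.64) and Gdf15 (0.86) were also called, making 4 members. Leaving out mouse 5 at 30 μg/kg added Ccng1 and Mdm2, and leaving out mouse 1, 2, 3 or 5 at 10 μg/kg added 1 member each time.

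The titles carry a single numbering and name no run. In its order the doses rise from vehicle to 30 μg/kg and then start again. From this 2 runs were taken, of 19 and 21 libraries, each holding mice of all doses. With either run alone, every member had at 30 μg/kg the direction it had over both. Cdkn1a had log2 fold changes of 2.77 and 3.26, Gdf15 1.68 and 1.97, Phlda3 2.17 and 2.47, Ccng1 0.74 and 1.13, Bax 1.02 and 0.60, and Bbc3 −0.97 and −2.03, all called in both. Mdm2, at 0.53 and 0.96, was called in the second run only, and Btg2, at 0.95 and 0.74, in neither. At 10 μg/kg Cdkn1a was 1.77 in the first run (edgeR adjusted p = 0.0555) and 2.87 in the second (edgeR adjusted p = 0.000196), and Gdf15 was 1.10 and 1.33, called in the second only. Bbc3 at 10 μg/kg was 0.30 in the first run and −0.81 in the second, neither of them called. Each run had 2 or 3 mice per group in these comparisons.

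Levels of different genes were compared per kilobase of exons, with lengths from GENCODE M21, which may not be the annotation behind the counts. In vehicle Ccng1 had the highest level, 8.96 CPM per kb, followed by Bbc3 at 8.71, Trp53inp1 at 8.11, Bax at 7.45 and Mdm2 at 7.04 CPM per kb. The ranges over mice of these 5 overlapped. Gdf15 had 5.59, Cdkn1a 3.26, Sesn2 3.25, Btg2 2.62 and Phlda3 0.738 CPM per kb. At 30 μg/kg Cdkn1a was the highest, at 26.8 ± 10.3 CPM per kb (SD, n = 5), and Bbc3 the lowest, at 3.08 ± 1.49 CPM per kb. Cdkn1a thus had the highest mean at 30 μg/kg and Bbc3, next to Ccng1 in vehicle, the lowest. At 30 μg/kg the range of Cdkn1a overlapped those of Gdf15, Ccng1, Trp53inp1, Bax and Mdm2, and that of Bbc3 overlapped those of Gdf15, Phlda3, Trp53inp1, Sesn2 and Btg2. The libraries keep no strand, and 7.68% of the exon bases of Cdkn1a overlap a gene on the opposite strand and 12.2% of those of Bax a gene on the same strand, so part of their counts is uncertain.

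**Figure D3:**
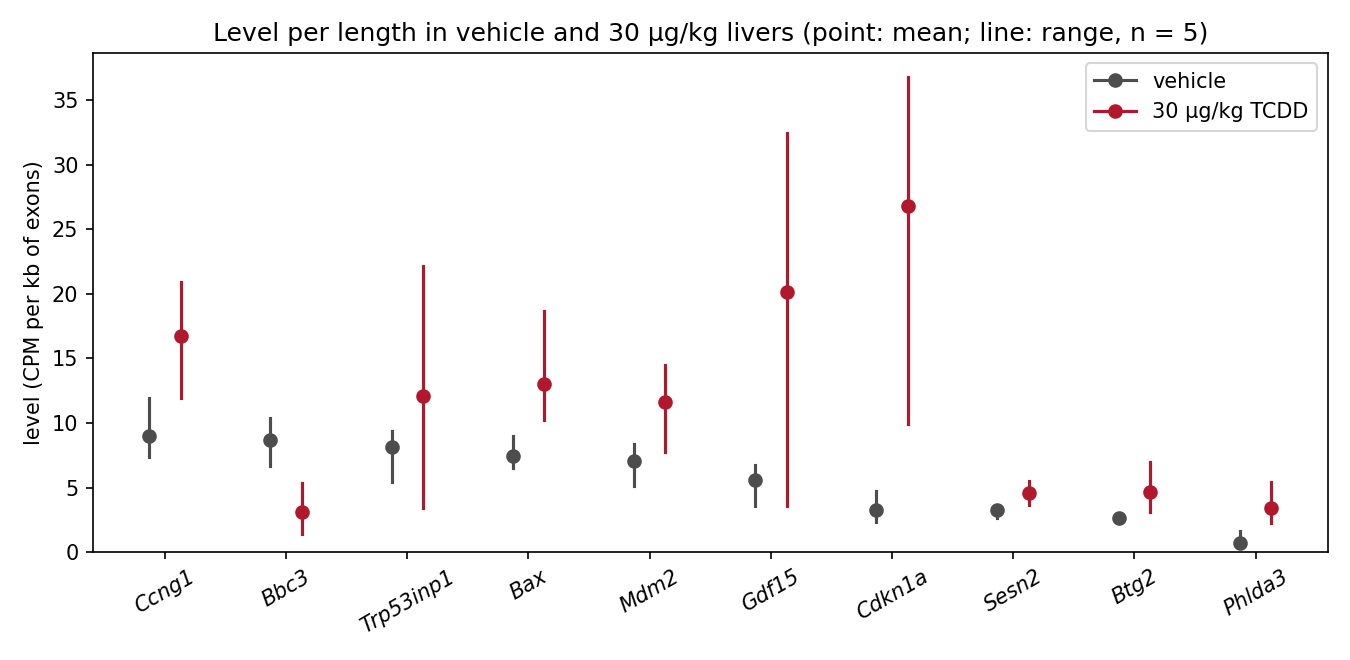
Level per length (CPM per kb of exons) of the 10 genes in vehicle and 30 μg/kg livers, with the mean as a point and the range of 5 mice as a line. Cdkn1a moved from 3.26 to 26.8 CPM per kb and Bbc3 from 8.71 to 3.08 CPM per kb.

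Markers of liver cells moved at 10 and 30 μg/kg as well, and some moved at lower doses, where no member was called. At 1 μg/kg 3 of 6 macrophage markers were higher (summed level 298 to 308 CPM) and 2 of 6 hepatocyte markers lower. At 3 μg/kg 4 of 6 macrophage, 3 of 3 neutrophil, 2 of 6 stellate and 1 of 5 endothelial markers were higher. The summed neutrophil level at 3 μg/kg was uneven, from 3.46 to 28.1 CPM with a median of 4.05, against 1.61 to 3.73 CPM in vehicle. Of 6 hepatocyte markers 3 were lower there. No lymphocyte or cholangiocyte marker was called at either. Of all genes 2.78% and 6.75% were called at these doses. Summed macrophage markers (Adgre1, Csf1r, Cd68, Cd5l, Clec4f, Lyz2), 6 of 6 of them higher at both 10 and 30 μg/kg, went from 154 to 215 CPM in vehicle to 375 to 599 CPM at 10 μg/kg and 524 to 1359 CPM at 30 μg/kg. Stellate cell markers (4 of 6 higher at 10 μg/kg and 5 of 6 at 30 μg/kg) went from 156 to 222 CPM to 363 to 453 and 466 to 1052 CPM. Cholangiocyte markers, none of 5 called at 10 μg/kg and 4 higher and 1 lower at 30 μg/kg, went from 37.2 to 48.4 CPM to 35.4 to 75.4 and 67.5 to 333 CPM. Immune and vessel cells were seen too. Of 3 neutrophil markers tested all were higher at both doses, with a summed level of 1.61 to 3.73 CPM in vehicle and 15.1 to 48.6 CPM at 30 μg/kg, and Ly6g and Mpo stood at 0 in every vehicle library. Lymphocyte markers were higher in 4 of 6 (3.48 to 5.04 against 3.87 to 11.0 CPM) and endothelial markers in 4 of 5 (106 to 148 against 193 to 284 CPM) at 30 μg/kg. Hepatocyte markers were lower in 5 of 6 at 30 μg/kg, from 95617 to 117052 CPM in vehicle to 27812 to 58281 CPM. Of all genes 13.6% were called higher and 8.13% lower at 10 μg/kg, and 23.2% and 18.9% at 30 μg/kg. The part of the marker shifts in the changes of the 10 genes was not tested.

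Around the 10 members, the other genes listed as p53 targets that were called were mostly higher, and p53 itself was modestly higher. Trp53 had 27.4 ± 3.91 CPM (SD, n = 5) in vehicle, 35.3 ± 3.49 at 10 μg/kg and 44.3 ± 5.92 CPM at 30 μg/kg. It was 1.62-fold higher at 30 μg/kg (log2 fold change 0.69, SE 0.10, edgeR adjusted p = 1.62e-07), with all 5 mice above every vehicle mouse. Of 12 regulators and relatives of p53 tested, Trp53 included, 4 were higher at 30 μg/kg, 1 was lower and 7 were not called (median log2 fold change −0.06), beside 23.2% and 18.9% of all genes. The kinases of the DNA damage checkpoint Chek1 (1.74), Chek2 (1.21) and Atr (0.82) rose, and Hipk2, a kinase that phosphorylates p53, fell by 0.90 on the log2 scale. At 10 μg/kg Chek2 (0.63) was the 1 called, beside 13.6% of all genes higher and 8.13% lower. Trp63 and Trp73 had too few counts to be tested.

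Of 36 other genes listed as p53 targets, 17 were higher at 30 μg/kg, 2 were lower and 17 were not called. Over all genes, 23.2% were higher and 18.9% lower. The median log2 fold change of the 36 listed genes was 0.53. The 10 μg/kg mice had 12 of them higher and 1 lower, beside 13.6% and 8.13% of all genes. The largest rises included the death receptor gene Tnfrsf10b, from 0.229 ± 0.23 to 16.3 ± 4.54 CPM (log2 fold change 6.02), the matrix gene Thbs1, from 1.01 ± 0.38 to 33.1 ± 15.7 CPM (5.03), and the receptor gene Eda2r, from 0.13 ± 0.12 to 2.03 ± 0.73 CPM (3.83). In the vehicle libraries Tnfrsf10b had at most 9 counts and Eda2r at most 5, and no bound was set for either. Psrc1, which encodes a spindle protein, had at most 1 count in a vehicle library. It was at least 16.5-fold higher, taking 3 counts per library as the floor. The 2 lower genes, Trp53inp2 and Sesn3, are relatives of Trp53inp1 and Sesn2, and whether p53 induces them was not examined here. They fell by 0.96 and 0.76, while the third sestrin gene, Sesn1, was not called (−0.06, edgeR adjusted p = 0.737).

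Of 15 other growth arrest genes tested, 4 were higher at 30 μg/kg, 4 lower and 7 not called (median 0.02). This was near the shares of 23.2% and 18.9% over all genes. At 10 μg/kg 2 were higher and 2 lower, beside 13.6% and 8.13% of all genes. Gadd45b, a stress-induced gene of the p38 pathway, rose by 5.32 on the log2 scale, Btg3 by 1.93, Rbl1, which encodes p107, by 1.71 and Cdkn2c, which encodes the kinase inhibitor p18, by 0.77. The antiproliferative genes Gas1, Btg1, Tob1 and Tob2 fell by 3.16, 1.43, 1.24 and 1.13. Btg1, Tob1 and Tob2 belong to the family of Btg2, so within it Btg2 and Btg3 were higher and the other 3 lower. Cdkn2a and Cdkn2b, which encode inhibitors best known as marks of senescence, had too few counts to be tested.

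In the BCL2 family apart from Bax and Bbc3, 3 of 12 genes were higher at 30 μg/kg, 2 were lower and 7 were not called (median 0.03). This was near the shares of 23.2% and 18.9% over all genes. At 10 μg/kg 2 were higher and 2 lower, beside 13.6% and 8.13% of all genes. Hrk, which encodes another BH3-only killer, went from 0.21 ± 0.25 to 6.91 ± 5.18 CPM (log2 fold change 5.04) and Bcl2l11, which encodes BIM, from 5.32 ± 1.45 to 28.0 ± 13.8 CPM (2.40). Hrk had at most 9 counts in a vehicle library. The protective gene Bcl2 rose by 1.57. The BH3-only genes Bid and Bik fell by 1.54 and 1.32. Of the other BH3-only genes, Pmaip1, which encodes NOXA and is counted here with the p53 targets, rose by 3.40, from 0.312 ± 0.22 to 3.42 ± 1.11 CPM, and Bmf (0.07) and Bad (−0.26) were not called. Pmaip1, Bmf and Bad were named after their values were seen.

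The targets of ATF4 that were called were all higher. The list of 18 genes held Sesn2, Gdf15 and Atf4 itself. At 30 μg/kg 13 were higher, none was lower and 5 were not called (median 1.83), beside 23.2% and 18.9% of all genes. At 10 μg/kg 12 were higher and none lower, beside 13.6% and 8.13%. Among those not called, Atf4 had 138 ± 21.4 CPM in vehicle and 113 ± 17.6 CPM at 30 μg/kg. Ddit3 (9.15 to 6.84 CPM) and Atf5 (406 to 280 CPM) also had lower means, and Chac1 (1.74 to 2.33 CPM) and Sesn2 higher ones. The hormone gene Fgf21 went from 0.65 ± 0.40 to 66.6 ± 19.2 CPM (log2 fold change 6.61), and Psat1 and Phgdh, which encode enzymes of serine synthesis, rose by 6.17 and 4.15. Phgdh had at most 5 counts in a vehicle library, and no bound was set for it. Slc7a11, which encodes the cystine carrier, had 0 counts in every vehicle library and 142 ± 125 CPM at 30 μg/kg, at least 743-fold higher.

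The genes that p21 and DREAM are known to silence were higher, not lower. All 18 proliferation genes of that list were called higher at 30 μg/kg (median log2 fold change 3.43, or 3.20 with Cdc25c, which had at most 3 counts in a vehicle library, at its bound), beside 23.2% of all genes, and 16 at 10 μg/kg, beside 13.6%. Ccnb1, which encodes cyclin B1, went from 0.241 ± 0.18 to 7.34 ± 1.33 CPM (4.90), and the mitotic genes Bub1, Cdc20 and Aurkb rose by 4.30, 4.30 and 4.21. In vehicle libraries the counts reached at most 8 for Ccnb1, 6 for Bub1, 11 for Cdc20 and 9 for Aurkb. The summed level of the 18 genes lay at 21.1 to 28.9 CPM in vehicle. It was 93.7 to 126 CPM at 10 μg/kg and 156 to 212 CPM at 30 μg/kg. These groups did not overlap, and mouse 1 at 30 μg/kg, which was the lowest of its group in Cdkn1a, lay mid-group here at 165 CPM. At 3 μg/kg 1 of the 18 was called, Mcm2 (0.65), which was chosen after its values were seen.

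**Figure D4:**
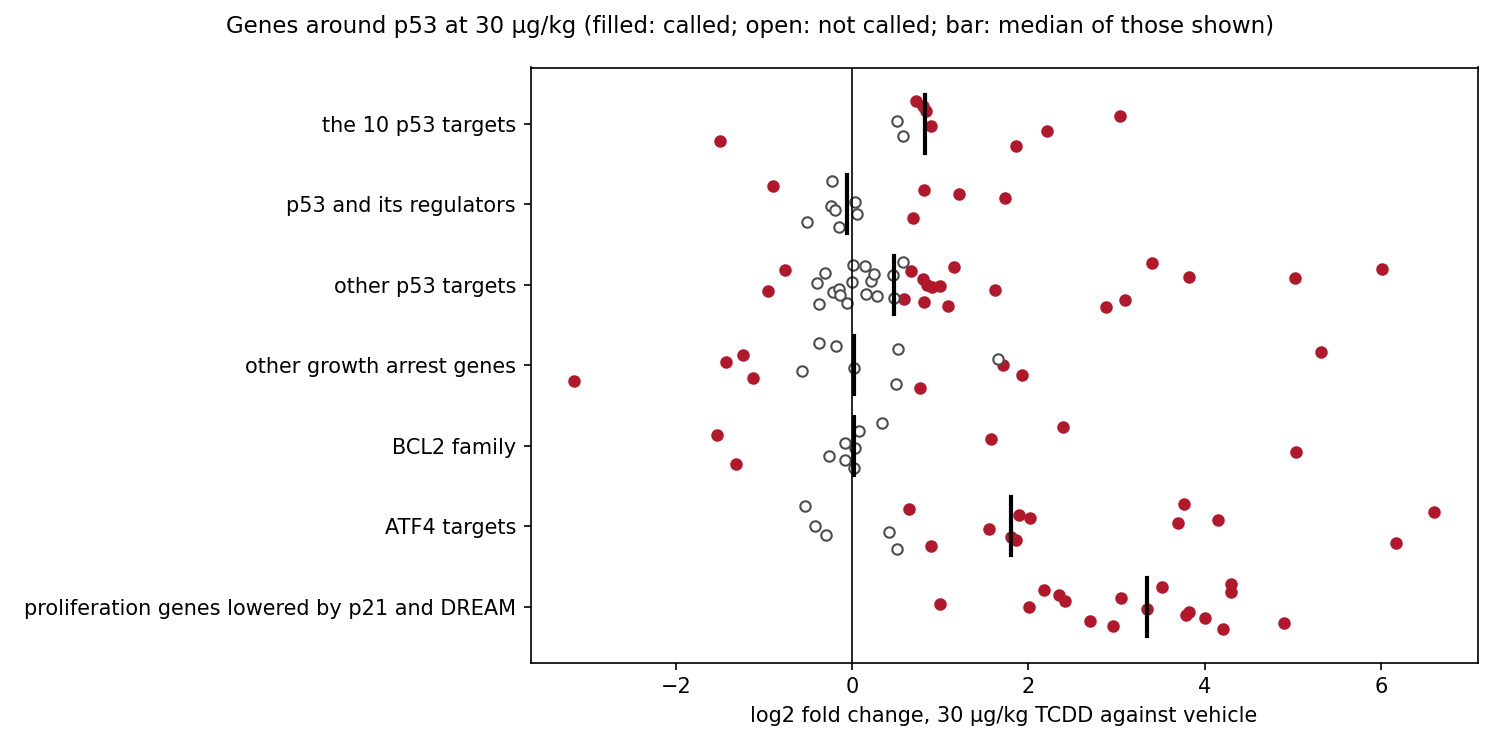
Log2 fold change at 30 μg/kg against vehicle of the 10 p53 targets and of 6 lists around p53 (1 point per gene, filled where called), with the median of the points shown as a bar. Slc7a11, Psrc1 and Cdc25c, at or under 3 counts in every vehicle library, are left out. All proliferation genes shown lie to the right, while the members range from −1.50 to 3.04.

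By the likeness of their log2 CPM over the 40 libraries, the genes nearest Cdkn1a among 9307 with a mean of at least 100 counts were Psat1 (Pearson r = 0.86), Ccdc120 (0.84), Stmn1 (0.84), Psph (0.84) and Jpt1 (0.84). These values describe mainly the step between the lower doses and the 10 and 30 μg/kg groups, which all these genes share. With the dose means removed they were 0.63, 0.44, 0.34, 0.45 and 0.50. Psat1 and Psph encode successive enzymes of serine synthesis, and Stmn1 encodes a protein that destabilises microtubules.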

How the data were processed

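Total liver RNA of 40 mice in 8 dose groups was sequenced as paired-end reads. Per library, the authors deposited raw unstranded and stranded counts for every gene, written by STAR (2.7.3a in the submitters' processing notes, which also name Trimmomatic 0.39 and FastQC 0.11.7). These notes name the builds GRCm39 and mm10 without their roles, so the build and annotation behind the counts are not settled. Only unstranded counts were used, since strand is not kept in these libraries. Reads in no single gene, 19.2% to 28.7% per library, were left out. The authors also deposited a normalised log2 table of 23120 genes, used as an alternative and as it is, since a planned log2 step assumed linear values. Symbols and exon lengths came from GENCODE M21, and 52083 of 55359 identifiers had one.

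The counts were fitted with edgeR 4.0.16 in R 4.3.3 after filterByExpr (minimum count 10, minimum total 15) and TMM scaling, by a quasi-likelihood model over all 40 libraries that gives each dose its own mean. Each dose was tested against vehicle, 30 against 10 μg/kg, and a slope over the ordered doses, with Benjamini-Hochberg adjustment over 15373 genes. CPM used TMM-scaled sizes. For the principal component and the likeness to Cdkn1a, log2 CPM added a prior count of 2. For the log2 levels by place in the numbering, a small constant was added to CPM instead. SDs describe mice and SEs the fit. The floor was 3 counts, and floors cover counting error only. No library was a copy of another in its dose group, since all 80 pairs of replicates differed with a chi-square of at least 11.1 per degree of freedom. Pairs from different groups were not compared. The steps were tested on simulated data.

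The members and lists were chosen with earlier results of these data known. Named are all 10 members, Trp53, from each list at most 4 genes called higher and 4 called lower with the largest change at 30 μg/kg, and the 5 genes most like Cdkn1a. Other genes named in a list's account follow from a count. Alternatives were DESeq2 1.42.0, RLE size factors, total counts, other filters on low counts and a fit of only the groups compared. Others were the runs read from the title numbers and the order in them as covariates, or each run alone. The rest were limma 3.58.1 on the log2 table, no fold threshold and leaving out each library in turn.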

Additional observations from a re-analysis of the deposited data

Results flagged for a closer look

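In 8 of the 80 sets of 5 mice formed by the 10 genes and 8 groups, 1 mouse lay so far from the others by Dixon's test that it stood out, and chance alone does so in about 1 of 20 sets. Cdkn1a reached 47.1 CPM in mouse 2 at 0.3 μg/kg, while the other 4 had at most 17.7 CPM. Ccng1 was low in mouse 5 at 10 μg/kg (28.8 CPM), and in the same mouse Bax was high (17.5 CPM). Phlda3 was high in vehicle mouse 2 (2.55 CPM) and in mouse 2 at 1 μg/kg (1.97 CPM). Btg2 reached 28.2 CPM in mouse 2 at 3 μg/kg, in the library with the lowest share of reads in genes. Sesn2 was low in vehicle mouse 1 (9.15 CPM) and high in mouse 4 at 0.1 μg/kg (15.3 CPM).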

How the results depend on the processing

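Depth limited Phlda3 most, with 9 to 41 counts per vehicle library, and it was not tested under a filter at a mean of 50 counts. The 8 members called at 30 μg/kg became 7 to 8 when single libraries were left out, and the 4 at 10 μg/kg became 3 to 4. At 10 μg/kg the first run alone called 0 members and the second 2, with fewer mice in each. At 3 μg/kg leaving out single libraries gave 0 to 1 members, and at 30 against 10 μg/kg it gave 1 to 4 where all libraries gave 1. That last count was 2 with DESeq2, RLE size factors, the groups compared alone, run and order as covariates, either run alone or limma on the deposited log2 values. It was 3 with the filter at a mean of 50 counts, 4 with no fold threshold and 6 with total counts alone. The cause of these differences was not tested. The same filter left 8 of the 18 proliferation genes called at 30 μg/kg, since fewer genes were tested. Bbc3 at 10 μg/kg changed sign in the first run alone, at 0.30. Scaling to total counts moved the median of all genes at 30 μg/kg to 0.52. On that scale Sesn2 (1.00) and Trp53inp1 (1.11) were called higher at 30 μg/kg and Sesn2 (0.65) at 10 μg/kg, and Bbc3 stayed lower (−1.02). With it 6402 genes were called higher and 1559 lower at 30 μg/kg, against 3567 and 2909. No paired analysis was possible because the labels give the groups no shared replicate numbers, and the numbers used here follow accession order. With the title run added to the model, a block of libraries that pairs no mice, the counts of members called at 10, at 30 and at 30 against 10 μg/kg stayed at 4, 8 and 1.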

Other observations

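Places in threes within a dose were read from the title numbers, since the titles do not name them. The levels of the members differed between these places in several ways. In the third place of the second run (6 libraries) the log2 level differed from the dose mean by −0.32 on average for Mdm2 and by −0.33 for Ccng1, with 6 of 6 libraries below it, and by −0.81 for Trp53inp1, with 5 of 6 below it. In the first place of the first run (7 libraries) Sesn2 differed by −0.20, with 7 of 7 below. Mdm2 had no library below the dose mean in the third place of the first run (0.15) or the first place of the second (0.18), with 7 libraries in each. Cdkn1a differed by 0.59 in the third place of the first run, with 1 of 7 below. The places were not balanced over dose. Vehicle had no library in the third place of the second run, while the 10 and 30 μg/kg groups did. What the place in the numbering stands for is not given in the sources used here, and no test was run on these values.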
